A study of Mus musculus with 36 samples.

Results

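The inhibitor of NFκB (IκB) family was followed as 6 genes, *Nfkbia*, *Nfkbib*, *Nfkbie*, *Nfkbiz*, *Nfkbid* and *Bcl3*, taken by gene symbol from the count and TPM tables over all 12 conditions. Each of the 6 symbols matched 1 row among the 53421 rows of the count table and the 52416 rows of the TPM table. The samples came from fibroblast-like chondrocytes of mouse, a conditionally immortalised line that grows under interferon-γ and was used after release from it, and their polyadenylated RNA was sequenced. Cells were transfected with a pool of non-targeting siRNA (NT) or a pool of siRNA against *Ift88* (IFT88siRNA), which encodes a protein of intraflagellar transport, the traffic along cilia. The labels give 50 nM siRNA, whereas the methods of the study give a lower concentration. Both groups were sampled without the cytokine IL-1β (0 h) and after 1, 2, 4, 8 or 24 h of exposure to 10 ng/ml of it, with 3 libraries in each of the 12 conditions and 36 in all. All groups therefore carried an siRNA, and the only cells without IL-1β were those at 0 h, so that time in culture and IL-1β cannot be told apart. The labels do not say that the 3 libraries of a condition came from separate cultures, and p-values measure the spread between these libraries, which may be technical.

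The NFκB dimers are held in the cytoplasm by the classical IκB proteins, which bind them through ankyrin repeats. IL-1β activates the IκB kinases, which phosphorylate the classical IκB proteins for ubiquitination and destruction, and the released dimers enter the nucleus. The IκB genes are themselves targets of NFκB, so new inhibitor is made after each activation. *Nfkbia* encodes IκBα, the inhibitor that is resynthesised fast and exports NFκB from the nucleus, *Nfkbib* encodes IκBβ, and *Nfkbie* encodes IκBε. The atypical members act in the nucleus on DNA-bound p50 or p52 homodimers: *Nfkbiz* encodes IκBζ, which helps to induce secondary response genes such as *Il6* and *Lcn2*, *Nfkbid* encodes IκBNS, and *Bcl3* encodes Bcl-3, which can activate or repress transcription.

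The 6 genes lie on 4 chromosomes of the mouse genome (GRCm38, GENCODE annotation used here for positions). *Nfkbia* (ENSMUSG00000021025) spans chr12:55489410-55492647 on the minus strand and *Nfkbie* (ENSMUSG00000023947) chr17:45555703-45563169 on the plus strand. *Nfkbiz* (ENSMUSG00000035356) spans chr16:55811375-55838899 on the minus strand. *Nfkbib* (ENSMUSG00000030595), *Nfkbid* (ENSMUSG00000036931) and *Bcl3* (ENSMUSG00000053175) are all on chromosome 7, at chr7:28758251-28767512 (minus), chr7:30421732-30428746 (plus) and chr7:19808462-19822770 (minus). The counting is given with default settings, which do not use strand, and exons of *Nfkbib* overlap those of *Sirt2* on the opposite strand over 42 bases, 1.94% of the exonic length of *Nfkbib*, so that reads from the pair cannot be told apart there. *Nfkbib* also shares 314 exonic bases with *Ccer2*, which had at most 2 counts in a library, and *Bcl3* shares 161 with *Gm16175*, which had at most 13.

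The promoter sequences of RefSeq (GRCm38.p6) are shown here because NFκB reads these genes through κB sites, and the members differ in whether a κB consensus stands close to the start site. The 250 bases before the start site were searched on both strands for the κB consensus, and 7.25% of the 32851 windows of this length in the same table held at least 1 match. The table matched 5 of the 6 members, all but *Nfkbiz*, with 7 windows since *Nfkbid* has 3 start sites, and 3 of the 7 held a match. The windows are written 5′ to 3′ on the strand of the gene, and the bases of each match are in capitals. Those of *Nfkbia*, *Nfkbie* and *Nfkbid* end at the base before the start site. The *Nfkbia* window (chr12:55492648-55492897, minus strand) has 1 match, at positions −29 to −20 counted from the start. The *Nfkbie* window (chr17:45555450-45555699, plus strand) has 1 match, at −106 to −97. At the second start site of *Nfkbid* (chr7:30422156-30422405, plus strand) 2 places match, at −226 to −217 and −181 to −172, the first of them on both strands. The *Bcl3* window held no match and is given for comparison, without its last 15 bases, which are annotated as exon (chr7:19822771-19823005, minus strand).
Nfkbia: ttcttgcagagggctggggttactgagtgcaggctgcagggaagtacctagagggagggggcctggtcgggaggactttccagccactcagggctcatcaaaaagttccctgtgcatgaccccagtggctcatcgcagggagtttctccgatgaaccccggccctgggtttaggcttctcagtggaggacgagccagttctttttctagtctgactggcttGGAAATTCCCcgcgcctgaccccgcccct
Nfkbie: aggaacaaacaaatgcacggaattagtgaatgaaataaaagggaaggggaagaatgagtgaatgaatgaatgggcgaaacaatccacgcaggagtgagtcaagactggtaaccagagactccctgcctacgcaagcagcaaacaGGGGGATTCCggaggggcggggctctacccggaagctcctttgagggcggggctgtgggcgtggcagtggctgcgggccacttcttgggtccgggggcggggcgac
Nfkbid, second start site: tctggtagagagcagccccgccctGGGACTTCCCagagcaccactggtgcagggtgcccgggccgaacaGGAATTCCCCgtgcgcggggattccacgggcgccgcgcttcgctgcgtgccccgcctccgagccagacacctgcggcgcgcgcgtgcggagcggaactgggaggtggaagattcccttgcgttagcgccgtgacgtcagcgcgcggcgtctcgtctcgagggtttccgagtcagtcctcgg
Bcl3: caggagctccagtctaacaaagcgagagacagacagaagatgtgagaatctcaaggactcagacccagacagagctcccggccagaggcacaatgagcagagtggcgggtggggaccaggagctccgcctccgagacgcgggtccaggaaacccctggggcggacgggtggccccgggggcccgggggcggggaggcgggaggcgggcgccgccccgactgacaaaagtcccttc
The windows of *Nfkbib* and of the other *Nfkbid* start sites also held no match, which says only that the consensus is not in these bases. A match is a run of letters and was not tested as a binding site.

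The counts on genes summed to 19337022 to 38304127 per library, with a median of 21672803.5 in NT and 25873754 in IFT88siRNA. Replicate 2 of NT at 2 h stood apart from the other two of its condition, with a chi-square per degree of freedom of 6.4 and 10.8 against 3.01 between those, and so did replicate 3 of IFT88siRNA at 8 h, with 9.89 and 10.9 against 5.7. Without the first, 1 member rather than 0 was called between the siRNA groups at 2 h, *Nfkbid*, and without the second still 0 at 8 h. Other IFT88siRNA libraries also stood apart: replicate 2 at 0 h (6.61 and 5.0 against 1.96) and at 4 h (6.11 and 8.93 against 3.5). So did replicate 3 at 24 h (5.68 and 4.9 against 1.71). Without replicate 2 of IFT88siRNA at 0 h, 63 genes were called for a different response at 1 h and 26 at 8 h. With all libraries these were 100 and 46. Expression is given as CPM, read counts scaled to the library total with edgeR's TMM factors, and levels of different genes are compared on the deposited TPM scale, which is corrected for transcript length as well. The targeted gene *Ift88* was called lower in IFT88siRNA at all 6 time points, with log2 differences between −1.47 and −2.12. Of 10 chondrocyte markers, 4 were under a mean TPM of 1, among them *Acan* and *Col9a1*, whereas *Col11a1*, *Comp* and *Sox9* had medians of 47.7, 16.1 and 11.6 TPM. The summed TPM of the 10 was 30.5 to 161 in NT and 38.3 to 139 in IFT88siRNA libraries. The 8 fibroblast markers summed to 2108 to 4495 TPM in NT and 2186 to 4682 in IFT88siRNA, mostly *Vim* (median 2289 TPM) and *Col1a2* (779). *Thy1* and *Lum* of that list had medians of 11.1 and 1.56 TPM. Of 9 leukocyte markers 5 were under a mean TPM of 1, with *Tyrobp* at 0 in every library and *Ptprc* at 0.161 TPM or less, and the sum was 15.8 to 50.4 TPM in NT and 19.7 to 40.9 in IFT88siRNA, mostly *Cd14* and *Cd68*. The 4 endothelial markers summed to at most 1.78 TPM and the 4 epithelial markers to at most 9.38 TPM. In bulk RNA, fewer cells expressing a gene and less RNA of it per cell cannot be told apart.

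The first comparison asked how each inhibitor responds to IL-1β in NT cells. All 6 genes rose, each with its own time course: *Nfkbia*, *Nfkbiz* and *Nfkbid* had their highest mean at 1 h, *Nfkbib* and *Nfkbie* at 2 h and *Bcl3* at 4 h. A gene was called with a Benjamini-Hochberg adjusted p-value under 0.05 in edgeR's quasi-likelihood test, which is two-sided, and a fold change over 1.5. The 6 genes were all called higher than at 0 h through the first 8 h, and 5 of them at 24 h, where *Nfkbib* stayed under 1.5-fold. *Nfkbid* passed the filter on low counts only through libraries with IL-1β. Its calls against 0 h, and its part in the counts and medians here, were favoured by that filter. Over all 16048 genes tested in NT, 9.22%, 13.0%, 16.3%, 11.8% and 6.61% were called higher at the same 5 times in turn. The median log2 change of the 6 genes was 3.67, 3.69, 3.09, 2.0 and 1.68 in that order, against medians between −0.019 and −0.0077 over all genes. Between neighbouring time points 2 of the 6 rose and 3 fell from 1 to 2 h, 1 rose and 3 fell from 2 to 4 h, 4 fell from 4 to 8 h and none was called from 8 to 24 h (4 of 6 at an unadjusted p under 0.05), where 11.9%, 27.1%, 16.9% and 13.4% of all genes were called in either direction. The share of all genes at an unadjusted p under 0.05 was not counted.

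**Figure D1:**
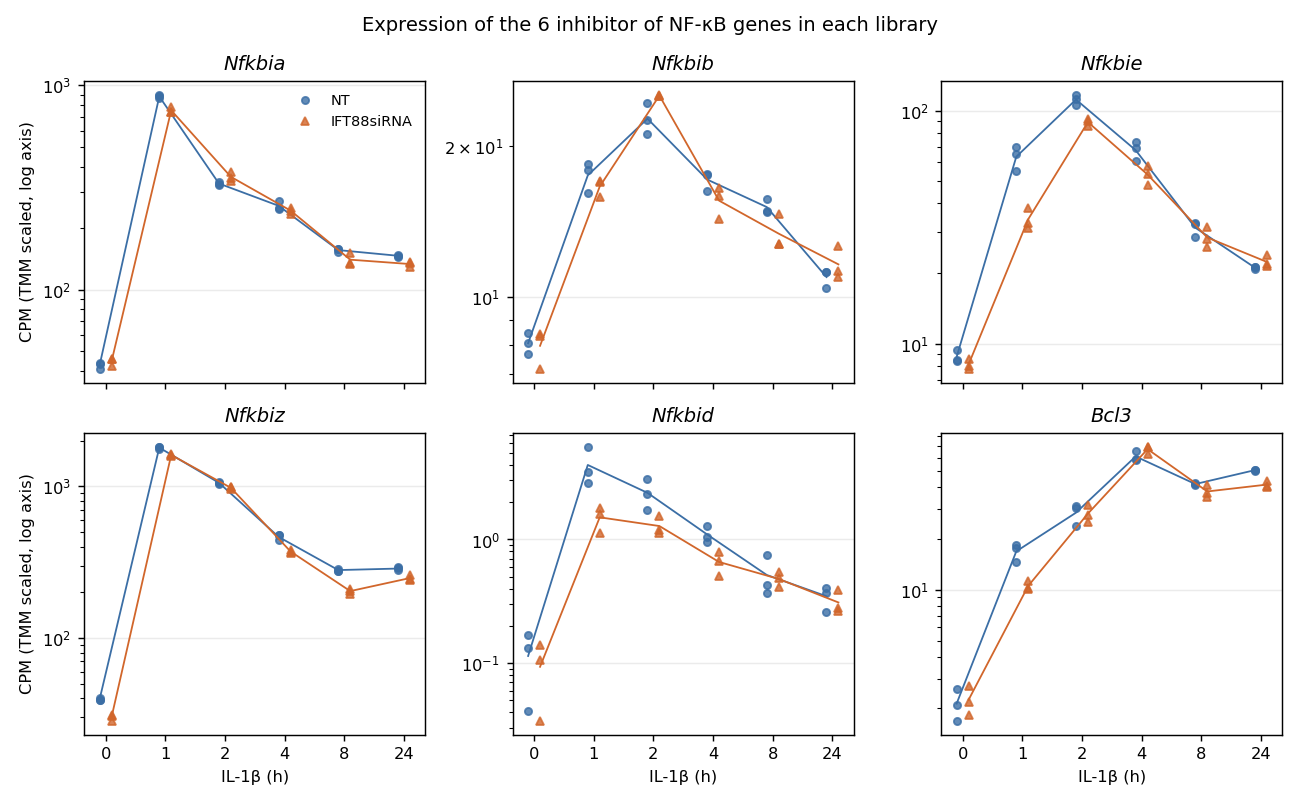
CPM of the 6 genes on log axes against the time with IL-1β (h, evenly spaced), with 1 point per library (circles NT, triangles IFT88siRNA, offset sideways) and lines through the means of 3 libraries. *Nfkbia* and *Nfkbiz* peak at 1 h and fall, and *Bcl3* climbs to 4 h and stays near 50.6 CPM at 24 h in NT. The IFT88siRNA points of every gene but *Nfkbib* lie below all NT points at 1 h. The share of all genes with such a separation was not counted.

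Among the classical inhibitors, *Nfkbia* (IκBα) stood at 40.8, 43.1 and 43.7 CPM in the NT libraries at 0 h and at 882, 899 and 864 CPM at 1 h. Every library at 1 h was far above every library at 0 h, and the log2 change was 4.37 ± 0.046 (SE, n = 3 against 3 libraries), 20.7-fold (edgeR adjusted p = 3.28e-28). The rise of *Nfkbia* ranked 32 from the highest of the 16048 genes at 1 h. The mean then fell to 330.4 ± 5.7 CPM at 2 h, 257 ± 11.9 at 4 h, 156 ± 2.33 at 8 h and 146 ± 1.63 at 24 h (SD, n = 3). The falls from 1 to 2 h (log2 −1.42) and from 4 to 8 h (−0.72) were called. The fall between 2 and 4 h was significant (edgeR adjusted p = 3.39e-08) but was under 1.5-fold, and that between 8 and 24 h did not pass the test (log2 −0.10, edgeR adjusted p = 0.054). At 24 h *Nfkbia* was still 3.44-fold above its level at 0 h.

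*Nfkbib*, which encodes IκBβ, moved least of the 6. Its NT libraries had 8.07, 7.67 and 8.47 CPM at 0 h, 18.4, 16.1 and 18 CPM at 1 h, and 21.1, 24.5 and 22.6 CPM at 2 h. All libraries at 2 h were above all libraries at 1 h, although that step was under 1.5-fold, and the log2 change from 0 h at 2 h was 1.49 ± 0.076 (SE, n = 3 against 3), 2.81-fold (edgeR adjusted p = 1.85e-14). It declined to 10.9 ± 0.446 CPM at 24 h (SD, n = 3), where the change from 0 h was 1.36-fold (log2 0.44, edgeR adjusted p = 8.14e-05) and under the fold threshold. *Sirt2*, whose exons share the 42 bases with *Nfkbib*, had 50.6 ± 2.31 CPM at 0 h, 73.7 ± 1.62 at 1 h, 76.5 ± 1.83 at 2 h and 45.2 ± 1.04 at 24 h in the same libraries (SD, n = 3), and its part in the *Nfkbib* values was not tested.

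*Nfkbie*, which encodes IκBε, had a larger rise than *Nfkbib*, and its highest mean came at 2 h. Its NT libraries were at 9.42, 8.49 and 8.38 CPM at 0 h, at 65.3, 55.2 and 69.7 CPM at 1 h and at 117, 105 and 112 CPM at 2 h. None of these sets overlapped, the step from 1 to 2 h was called (log2 0.81 ± 0.071, SE, n = 3 against 3, edgeR adjusted p = 1.26e-09), and the change from 0 h at 2 h was 12.7-fold (log2 3.66 ± 0.089, SE). *Nfkbie* then fell at both of the next steps, by 0.71 on the log2 scale from 2 to 4 h and by 1.11 from 4 to 8 h. From 8 to 24 h it fell by 0.57 (edgeR adjusted p = 3.65e-06), just under 1.5-fold, and the fall was called without replicate 2 of NT at 8 h (log2 −0.64). At 24 h it was 2.41-fold above 0 h.

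Among the atypical members, *Nfkbiz* (IκBζ) had the largest fitted rise, although the 95% interval of *Nfkbid* at 1 h (log2 4.23 to 5.90) holds its value, so that the order of the pair is not resolved. The NT libraries had 40.4, 38.7 and 38.9 CPM at 0 h and 1827, 1757 and 1827 CPM at 1 h. The sets were far apart, and the change was 45.7-fold (log2 5.52 ± 0.047, SE, n = 3 against 3, edgeR adjusted p = 8.03e-30), which ranked 18 from the highest of all genes tested. *Nfkbiz* was called lower at each of the next 3 steps, at 1057 ± 19.6 CPM at 2 h, 464 ± 20.3 at 4 h and 281 ± 4.65 at 8 h (SD, n = 3). It did not go on falling: the 287 ± 7.79 CPM at 24 h could not be told from the level at 8 h (log2 0.03, edgeR adjusted p = 0.57), and was 7.29-fold above 0 h. The TPM values gave a step from 4 to 8 h of log2 −0.55, just under the fold threshold.

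*Nfkbid*, which encodes IκBNS, was close to absent without IL-1β and low throughout. The NT libraries had 4, 1 and 3 counts at 0 h, 66, 66 and 114 at 1 h and 45, 38 and 69 at 2 h. Every library at 1 h lay above every library at 0 h, and the summed counts, scaled for library size, were 34.9-fold higher, with an exact 95% interval of 17.4 to 81.7 that covers counting error only. The fitted log2 change was 5.06 ± 0.40 (SE, n = 3 against 3, edgeR adjusted p = 1.79e-10). *Nfkbid* entered this test only through libraries with IL-1β, so the filter on low counts favoured a rise. The libraries at 1 and 2 h overlapped once scaled, at 2.86 to 5.61 CPM and 1.73 to 3.07 CPM. The step down between them was called (log2 −0.74, edgeR adjusted p = 0.0137) but was lost without replicate 3 of NT at 1 h (adjusted p = 0.193) or replicate 2 of NT at 2 h (adjusted p = 0.0775), and by TPM. The fall from 4 to 8 h (log2 −1.10) was lost without replicate 3 of NT at 4 h or replicates 1 or 3 of NT at 8 h, and by TPM. At 24 h, with 7, 11 and 11 counts, *Nfkbid* was called higher than at 0 h (log2 1.57 ± 0.63, edgeR adjusted p = 0.0459), but leaving out any 1 NT library of 0 h, or replicate 2 or 3 of 24 h, moved the adjusted p to between 0.0504 and 0.173.

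*Bcl3*, which encodes Bcl-3, was the late and lasting member. Its NT libraries had 2.62, 2.1 and 1.69 CPM at 0 h, 18.3, 14.6 and 17.5 CPM at 1 h, 31.2, 23.6 and 30.4 CPM at 2 h and 57.8, 58.9 and 65.9 CPM at 4 h. No 2 of these sets overlapped. The steps from 1 to 2 h (log2 0.76, and 0.56 by TPM, under 1.5-fold) and from 2 to 4 h (log2 1.11 ± 0.084, SE, edgeR adjusted p = 3.05e-11) were called, and the change at 4 h was 28.5-fold against 0 h (log2 4.83 ± 0.12, SE). *Bcl3* then dipped to 41.9 ± 0.596 CPM at 8 h and stood at 50.6 ± 0.659 CPM at 24 h (SD, n = 3), and neither step passed 1.5-fold. At 24 h it kept 83.1% of its highest mean, against 16.6% for *Nfkbia*, 15.9% for *Nfkbiz*, 19.0% for *Nfkbie*, 8.69% for *Nfkbid* and 48.2% for *Nfkbib*. It was then 23.6-fold above 0 h (log2 4.56 ± 0.12, SE, edgeR adjusted p = 1.08e-19), the highest fold of the 6 at that time.

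**Figure D2:**
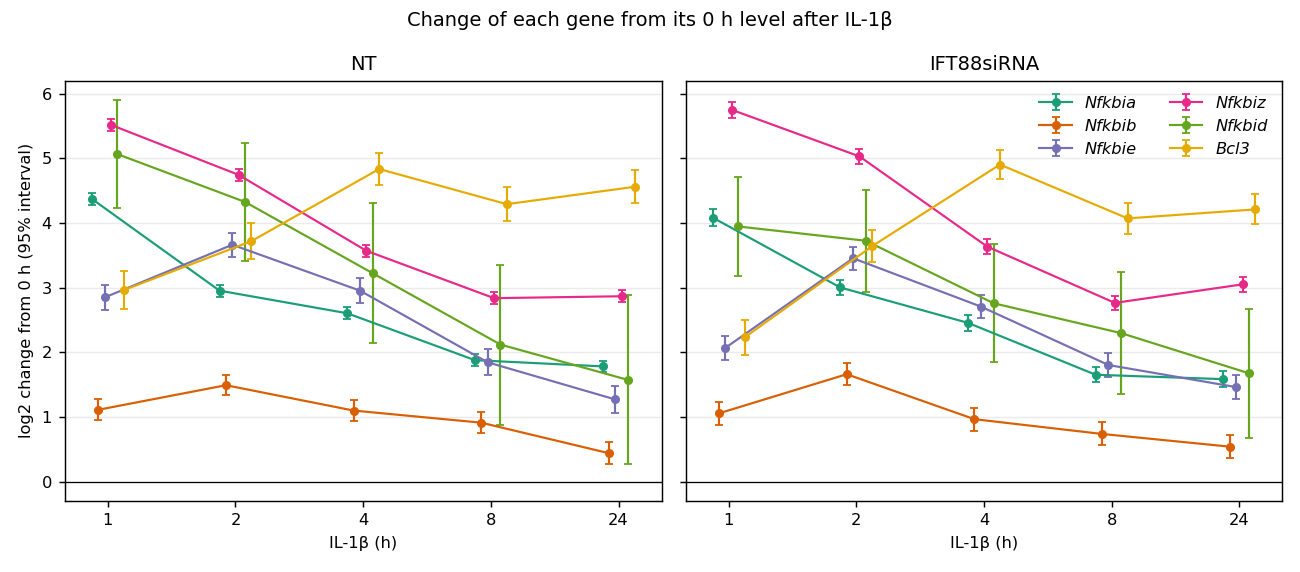
Log2 change from 0 h of the 6 genes (y axis) at 1 to 24 h with IL-1β (x axis, evenly spaced, genes offset sideways) in NT (left) and IFT88siRNA (right), with 95% intervals from edgeR. *Nfkbiz* starts highest, at 5.52 in NT and 5.75 in IFT88siRNA, *Bcl3* is above the others from 4 h on, and *Nfkbib* stays lowest at all times.

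On the TPM scale, which allows levels of different genes to be compared, *Nfkbia* and *Nfkbiz* made up most of the family. At 0 h in NT, *Nfkbia* had 60.2 ± 1.38 TPM, *Nfkbiz* 21.9 ± 0.524, *Nfkbib* 13.9 ± 0.621, *Nfkbie* 6.72 ± 0.404, *Bcl3* 3.67 ± 0.832 and *Nfkbid* 0.110 ± 0.0625 (SD, n = 3). No neighbours in this order overlapped. Summed over the 6 genes the level went from 107 ± 0.461 TPM at 0 h to 2099 ± 19.6 at 1 h, and then to 1032 ± 35.7, 675 ± 21.1, 461 ± 8.39 and 450.2 ± 5.86 at 2, 4, 8 and 24 h.

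The make-up of that sum shifted over time. *Nfkbia* held 56.5% ± 1.16 of it at 0 h and 53.1% ± 1.19 at 1 h, and *Nfkbiz* went from 20.6% ± 0.515 to 42.4% ± 0.793. At 2 h *Nfkbiz* was the larger, at 47.5% ± 1.73 against 38.8% ± 1.14 for *Nfkbia*. The share of *Nfkbib* was 13.1% ± 0.526 at 0 h and 1.2% ± 0.0706 at 1 h, and that of *Bcl3* was 1.22% ± 0.114 at 1 h and 15.8% ± 0.613 at 24 h (SD over 3 libraries). CPM per kilobase of exonic length gave *Nfkbia* more of the sum in every condition, 58.0% at 1 h and 43.2% at 2 h in NT, and *Bcl3* less, 11.3% at 24 h. On that scale *Nfkbia* and *Nfkbiz* at 2 h in NT differed by about the spread between libraries (43.2% ± 0.60 and 44.3% ± 1.01), and their order turned in IFT88siRNA, where *Nfkbia* had 47.1% and *Nfkbiz* 41.6% in place of 41.9% and 45.3% by TPM.

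**Figure D3:**
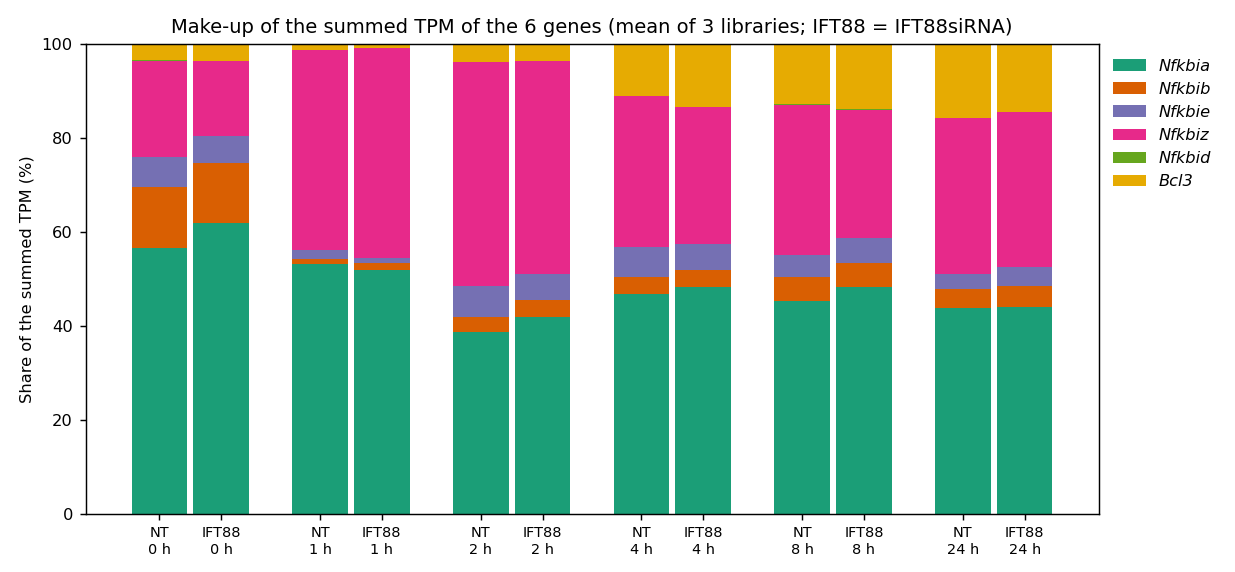
Share of the summed TPM of the 6 genes (y axis, %) held by each gene, as the mean of 3 libraries, for NT and IFT88siRNA (marked IFT88) at each time with IL-1β (x axis). *Nfkbia* and *Nfkbiz* fill most of each bar, the *Nfkbib* part shrinks from 13.1% to 1.2% between 0 and 1 h in NT, the *Bcl3* part grows to 15.8% at 24 h, and *Nfkbid*, at most 0.180%, is a hairline or too thin to see.

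In IFT88siRNA cells, the same 6 genes rose after IL-1β and each had its highest mean at the same time point as in NT. All 6 were called higher than at 0 h through the first 8 h and 5 at 24 h, against 6.82%, 12.4%, 16.0%, 10.5% and 6.36% of the 16129 genes tested. Here too *Nfkbid* passed the filter on low counts only through libraries with IL-1β, which favoured its calls. From one time point to the next 5, 5, 4 and 0 of the 6 were called in either direction, against 12.2%, 27.9%, 17.6% and 10.4% of all genes, and 3 of 6 had an unadjusted p under 0.05 from 8 to 24 h, for which the share of all genes was not counted. The log2 changes at 1 h were 4.08 for *Nfkbia*, 1.06 for *Nfkbib*, 2.07 for *Nfkbie*, 5.75 for *Nfkbiz*, 3.95 for *Nfkbid* and 2.23 for *Bcl3*. *Nfkbib* at 24 h was again under the fold threshold (log2 0.54, edgeR adjusted p = 1.49e-05). *Bcl3* reached 67.2 ± 3.76 CPM at 4 h and *Nfkbie* 89.2 ± 2.81 CPM at 2 h (SD, n = 3), with the step from 1 to 2 h at log2 1.38 for *Nfkbie* and 1.41 for *Bcl3*, side by side with 0.81 and 0.76 in NT. *Nfkbid* at 24 h (log2 1.68, edgeR adjusted p = 0.00725) lost its call without replicate 1 of IFT88siRNA at 0 h (adjusted p = 0.0539). The step of *Nfkbib* from 1 to 2 h (log2 0.60) fell under 1.5-fold without replicate 1 at 1 h (log2 0.57), and that of *Nfkbia* from 2 to 4 h (log2 −0.55) passed it without replicate 2 at 2 h (log2 −0.59).

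The next comparison asked whether depletion of IFT88 changes the level of each inhibitor at a given time. At 1 h, 3 of the 6 genes were lower in IFT88siRNA and called, *Nfkbie*, *Nfkbid* and *Bcl3*, where 2.47% of 14797 genes were called lower. No member was called at 0, 2, 4, 8 or 24 h, with 5 members tested at 0 h, since *Nfkbid* did not pass the filter on low counts, and 6 at the other times. The share of all genes called in either direction was 2.23%, 2.66%, 0.496%, 0.432%, 0.692% and 1.15% at 0, 1, 2, 4, 8 and 24 h. At an unadjusted p under 0.05 in edgeR, 1 member at 0 h, 4 at 2 h, 4 at 4 h, 4 at 8 h and 3 at 24 h differed, of which *Nfkbia* at 2 h and *Bcl3* at 4 h were higher in IFT88siRNA and the others lower. The share of all genes at this looser threshold was not counted, so these counts cannot be set against a background. DESeq2 and limma also called 0 members at these 5 times.

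At 1 h the NT libraries of *Nfkbie* had 65.3, 55.2 and 69.7 CPM, and the IFT88siRNA libraries 31.5, 33.0 and 38.1 CPM. The groups did not overlap, and the mean of IFT88siRNA was 53.9% of that of NT (log2 −0.89 ± 0.079, SE, n = 3 against 3, edgeR adjusted p = 1.97e-06). *Nfkbie* was also lower at 2 h (log2 −0.32, adjusted p = 0.0080) and at 4 h (−0.35, adjusted p = 0.0097), by less than 1.5-fold, and missed the threshold at 8 h (−0.16, adjusted p = 0.272) and 24 h (0.08, adjusted p = 0.522). The difference at 2 h was not significant without replicate 1 of NT (edgeR adjusted p = 0.0763) or replicate 2 of IFT88siRNA (0.0771), nor that at 4 h without replicate 3 of NT (0.0809) or replicate 1 of IFT88siRNA (0.110), and by limma on TPM the adjusted p reached 0.172 and 0.328. With TPM and no filter on low values, the difference at 1 h was of the same size (log2 −0.86) with an adjusted p of 0.0517 by limma.

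*Nfkbid* had 3.52, 2.86 and 5.61 CPM in NT at 1 h and 1.6, 1.12 and 1.81 CPM in IFT88siRNA, from 66, 66 and 114 counts and 38, 30 and 44 counts. The libraries did not overlap, although those of NT were spread widely, and the log2 difference was −1.41 ± 0.24 (SE, n = 3 against 3, edgeR adjusted p = 0.000898), which ranked 23 from the lowest of the 14797 genes. The difference was not called by any of the 3 fits to the TPM values, whose adjusted p was between 0.0731 and 0.196. At 2 h the groups again did not overlap, with 2.35, 1.73 and 3.07 CPM in NT and 1.13, 1.19 and 1.53 CPM in IFT88siRNA. The log2 difference of −0.89 missed the threshold (edgeR adjusted p = 0.084), and it passed with all 36 libraries in 1 model (adjusted p = 0.0257), with no filter on low counts (adjusted p = 0.00399), with the replicate block (adjusted p = 0.0234) and without replicate 2 of NT at 2 h (adjusted p = 0.00583). These were 4 of 14 alternatives. The adjusted p was 0.113 by DESeq2, 0.361 by limma on TPM with a pseudocount of 1, and up to 0.300 in edgeR without 1 library.

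*Bcl3* had 18.3, 14.6 and 17.5 CPM in NT at 1 h and 10.1, 11.3 and 10.2 CPM in IFT88siRNA. The groups did not overlap, with IFT88siRNA at 62.6% of NT (log2 −0.67 ± 0.092, SE, n = 3 against 3, edgeR adjusted p = 0.000147). At 2 h the libraries of *Bcl3* overlapped, at 31.2, 23.6 and 30.4 CPM in NT and 27.5, 24.9 and 31.7 in IFT88siRNA, and at 4 h they overlapped as well. At 24 h *Bcl3* was lower in IFT88siRNA by less than 1.5-fold (log2 −0.29, edgeR adjusted p = 0.00207, and 0.0519 to 0.119 by limma on TPM), at 40.3, 40.6 and 43.8 CPM against 50.9, 49.8 and 51.0.

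*Nfkbiz* had another pattern, a small difference that was in place before IL-1β. At 0 h the NT libraries were at 40.4, 38.7 and 38.9 CPM and the IFT88siRNA libraries at 30.9, 30.7 and 28.3 CPM (log2 −0.39 ± 0.055, SE, n = 3 against 3, edgeR adjusted p = 2.01e-05). The IFT88siRNA libraries lay below all NT libraries at each of the 6 time points, on the CPM and on the TPM scale. The log2 differences were −0.17, −0.11, −0.33, −0.48 and −0.21 from 1 to 24 h in turn, of which that at 2 h missed the threshold (adjusted p = 0.170) and the others had edgeR adjusted p-values between 0.000718 and 0.0106. At 0 h the adjusted p stayed at 0.0364 or less under every alternative, whereas by limma on TPM it reached 0.108 at 1 h, 0.122 at 4 h, 0.0623 at 8 h and 0.183 at 24 h. The difference at 24 h also missed the threshold without replicate 2 of NT (adjusted p = 0.0538) or replicate 2 of IFT88siRNA (0.107) in edgeR. None of the 6 differences reached 1.5-fold, and the largest, at 8 h, had 277, 286 and 279 CPM in NT and 205, 194 and 212 CPM in IFT88siRNA.

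*Nfkbia* and *Nfkbib* differed least, judged by the largest of their differences. At 1 h the NT libraries of *Nfkbia* were at 882, 899 and 864 CPM and the IFT88siRNA libraries at 739, 784 and 739.6 CPM, without overlap (log2 −0.23 ± 0.037, SE, n = 3 against 3, edgeR adjusted p = 0.000518, up to 0.0678 over the alternatives). At the other times its log2 difference was between −0.17 and 0.11 and did not pass the test. *Nfkbib* was between −0.20 and 0.15 at all 6 time points, with adjusted p-values of 0.196 or more.

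**Figure D4:**
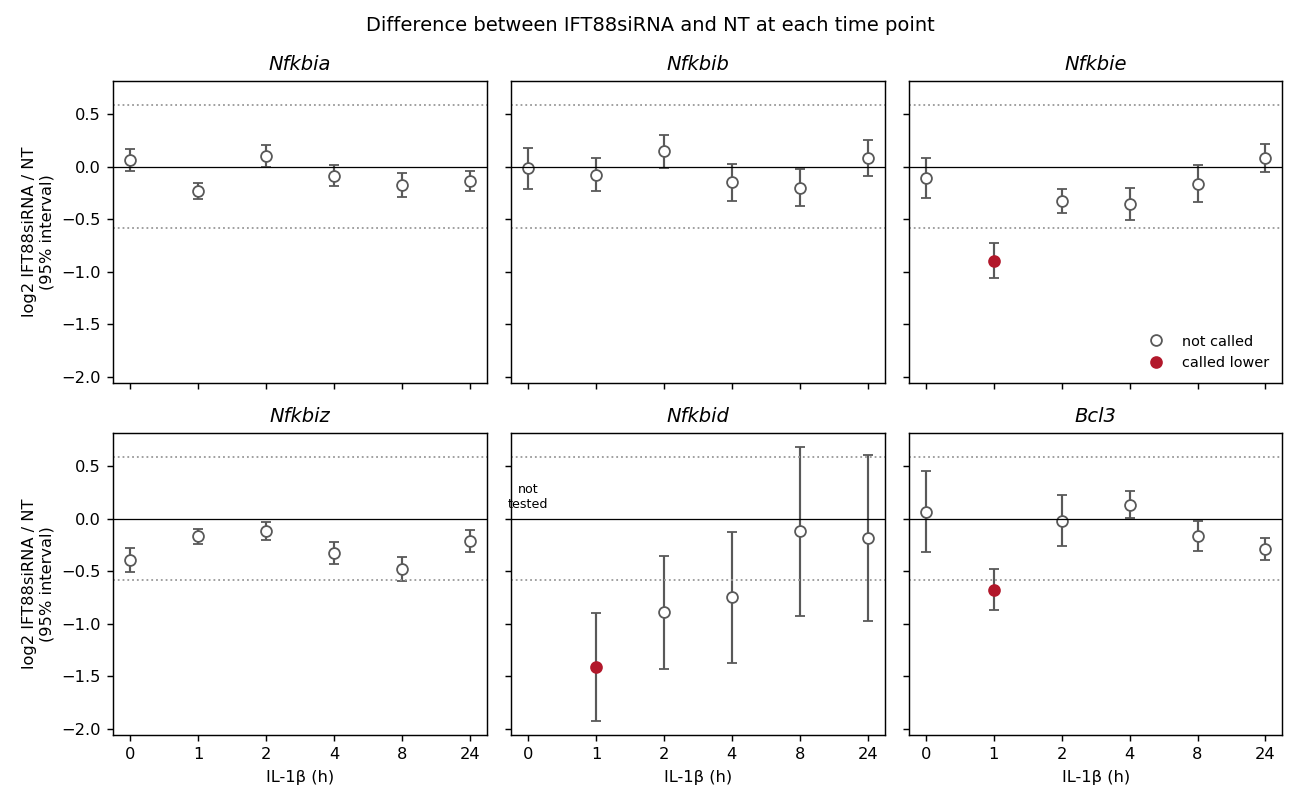
Log2 difference between IFT88siRNA and NT (y axis, with 95% intervals from edgeR, n = 3 against 3 libraries) for each gene at each time with IL-1β (x axis, evenly spaced), with filled red points for genes called lower, open points for the rest and dotted lines at 1.5-fold. The filled points are *Nfkbie* (−0.89), *Nfkbid* (−1.41) and *Bcl3* (−0.67) at 1 h, all *Nfkbiz* points lie below 0, and *Nfkbid* was not tested at 0 h.

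Whether the change from 0 h itself differed between the siRNA groups was tested over all 36 libraries. These differences use the same libraries as the comparisons above and add no independent support to them. *Nfkbie* at 1 h was the 1 member called, with a rise of log2 2.07 in IFT88siRNA and 2.85 in NT (difference −0.78 ± 0.14, SE, edgeR adjusted p = 0.000943), where 0.598% of 16710 genes were called in either direction. The alternatives put this difference between −0.87 and −0.71, called in all 19 of them. *Bcl3* at 1 h differed by about as much (−0.73 ± 0.23, SE) but missed the threshold (edgeR adjusted p = 0.090), which it passed by DESeq2 (adjusted p = 0.0232), with no filter on low counts (0.0118) and without replicate 2 of NT at 1 h (0.0423). These were 3 of 19 alternatives, and without 1 library the edgeR adjusted p reached 0.306. The difference for *Nfkbid* at 1 h had a 95% interval of −2.80 to 0.54, which holds both 0 and the difference found for *Nfkbie*, and was called in 1 alternative, limma on TPM with a pseudocount of 1 (log2 −0.84, adjusted p = 0.0379).

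The 2 most abundant members gave small differences of opposite sign. The rise of *Nfkbia* at 1 h was less in IFT88siRNA by 0.29 on the log2 scale (edgeR adjusted p = 0.0152), and the rise of *Nfkbiz* was more, by 0.23 at 1 h (adjusted p = 0.0371) and by 0.28 at 2 h (adjusted p = 0.0147), from the lower level at 0 h given above. None of the 3 reached 1.5-fold. At 2, 4, 8 and 24 h no member was called, where 0.245%, 0.311%, 0.275% and 0.132% of all genes were.

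The other genes of the pathway were read from lists by function. All 5 NFκB subunit genes were called higher than at 0 h at 2 and 4 h in NT, where 13.0% and 16.3% of all genes were. The median log2 change of the 5 was 1.2, 2.19, 1.74, 1.03 and 0.87 over the 5 times. *Relb*, the partner of p52 in the non-canonical pathway, reached 198 ± 9.34 CPM at 2 h from 27.9 ± 2.28, *Nfkb1*, which encodes p50 and its precursor, 741 ± 21.7 CPM at 4 h from 129 ± 3.47, and *Rel*, which encodes c-Rel, 127 ± 7.11 CPM at 2 h from 27.4 ± 2.43 (SD, n = 3). None of the 5 was called between IFT88siRNA and NT at any time, where 0.432% to 2.66% of all genes were called in either direction. Within that result *Rela*, which encodes the main transactivating subunit p65 and is named here after its values were seen, was lower in IFT88siRNA at all 6 time points, by 0.32 to 0.50 on the log2 scale with edgeR adjusted p-values of 0.000424 or less, under 1.5-fold each time.

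The machinery that destroys IκB proteins was read from 2 lists. Of 7 genes for the IκB kinases and related kinases, 1, 0, 3, 1 and 1 were called higher in NT from 1 to 24 h in turn and none lower, against 9.22%, 13.0%, 16.3%, 11.8% and 6.61% of all genes, so that these counts lie near the background. *Ikbke*, which encodes the inducible kinase IKKε, rose most, from 10.4 ± 0.504 CPM at 0 h to 37.3 ± 4.26 at 4 h (SD, n = 3), and *Tbk1* (log2 0.70) and *Ikbkb* (0.68) were also called at 4 h. Of the 5 ubiquitin ligase genes in the table, *Fbxw11*, an F-box protein that recognises phosphorylated IκB, was the 1 call (log2 0.59 at 4 h). Neither list had a call between IFT88siRNA and NT at any time. Of all genes, 0.432% to 2.66% were called there in either direction, so that for lists this short the result lies near the background.

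Of 13 genes for other negative feedback on NFκB, 4, 5, 5, 5 and 4 were called higher in NT from 1 to 24 h in turn, against the same 9.22%, 13.0%, 16.3%, 11.8% and 6.61% of all genes. *Tnfaip3*, which encodes the ubiquitin-editing enzyme A20, rose from 31.9 ± 2.63 to 2714 ± 74.6 CPM at 1 h, *Zc3h12a*, which encodes the ribonuclease Regnase-1, from 5.52 ± 0.315 to 215 ± 14.6 CPM at 2 h, and *Zfp36*, which encodes the mRNA-destabilising protein tristetraprolin, from 25.3 ± 1.11 to 395 ± 40.8 CPM at 1 h (SD, n = 3). The 1 gene called lower, named after its values were seen, was *Pdlim2*, which encodes an adaptor that promotes the destruction of p65 (log2 −1.31 at 8 h). Of the 16048 genes, 3158 were called at 8 h against 0 h in NT, 1895 of them higher and the rest lower. *Tnfaip3* was the 1 gene of the list called between the siRNA groups, lower in IFT88siRNA at 4 h (217 ± 7.22 against 333 ± 10.3 CPM, log2 −0.62, edgeR adjusted p = 3.87e-06) and at 8 h (75.2 ± 5.71 against 114 ± 1.81 CPM, log2 −0.62, adjusted p = 0.000318). Of all genes, 0.399% at 4 h and 0.613% at 8 h were called lower there.

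Of 10 genes known as dependent on IκBζ, 9 were tested in NT and all 9 were called higher at 2, 4, 8 and 24 h, 7 of them at 1 h. With the 0 h libraries alone, 4 of the 10 passed the filter on low counts. The others entered the NT test only through libraries with IL-1β. That filter favoured their calls higher than 0 h, which are therefore no test of direction. Over all genes, 9.22%, 13.0%, 16.3%, 11.8% and 6.61% were called higher from 1 to 24 h in turn. *Lcn2*, which encodes the iron-sequestering protein lipocalin-2, reached 1199 ± 85.1 CPM at 24 h from 0.470 ± 0.0867, *Cxcl5*, a neutrophil chemokine, 849 ± 49.9 CPM at 24 h from 0.369 ± 0.0129, and *Nos2*, the inducible nitric oxide synthase, 348 ± 37.0 CPM at 4 h from 0.0141 ± 0.0244 (SD, n = 3). In IFT88siRNA, 0 of 4 tested were called lower at 0 h, 3 of 8 at 1 h, 1 of 9 at 2 h, 4 of 9 at 4 h, 4 of 8 at 8 h and 3 of 8 at 24 h, and none higher, where 1.56%, 2.47%, 0.462%, 0.399%, 0.613% and 0.598% of all genes were called lower. *Zc3h12a* belongs to this list as well as to the one before. *Ccl20*, a chemokine, was lower from 1 to 8 h (log2 −0.99, −0.86, −0.78 and −1.07), and *Csf2* (−1.98) and *Cxcl5* (−0.70) were lower at 1 h. The cytokine *Il6* (−0.63, −1.43 and −1.07), the colony-stimulating factor *Csf3* (−0.60, −1.53 and −0.89) and *Nos2* (−0.59, −1.0 and −1.04) were lower at 4, 8 and 24 h. The list was drawn up with earlier results on these libraries known. Its calls, against 0 h and between siRNA groups alike, are no independent evidence of a direction.

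The genes whose pattern was most like that of each member were taken by Pearson's r over the 12 condition means on the log2 CPM scale, among 16710 genes, as a description of points that share siRNA group and time. *Junb*, a subunit of the transcription factor AP-1, was closest to *Nfkbia* (r = 0.986), *Relb* to *Nfkbie* (0.987), *Phlda1* to *Nfkbiz* (0.984), *Gm37677* to *Nfkbid* (0.976), *Rassf6* to *Nfkbib* (0.980) and *Cebpb*, a leucine zipper transcription factor, to *Bcl3* (0.987). *Tlr2*, an innate immune receptor, was second for both *Nfkbib* (0.972) and *Nfkbie* (0.981), and *Tnf* second for *Nfkbid* (0.975). Within the family, *Nfkbia* and *Nfkbiz* had r = 0.979 and *Nfkbib* and *Nfkbie* 0.968, whereas *Bcl3* had values between 0.418 and 0.655 with the other 5.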

How the data were processed

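Poly(A) RNA-seq libraries were analysed, 3 for each of 12 conditions. The authors aligned the reads to GRCm38 with HISAT2 2.1.0 and deposited raw counts per gene from featureCounts (Subread 1.6.3, default parameters), and a TPM table from Salmon 0.9.1, which is scaled for length and library size. Groups came from the sample labels.

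Counts were tested with edgeR 4.0.16 under R 4.3.3, using TMM scaling, filterByExpr for low counts and quasi-likelihood F-tests on the whole table, with Benjamini-Hochberg adjustment over all genes tested. NT and IFT88siRNA time courses were fitted over 18 libraries each, siRNA differences over 6 libraries per time point, and response differences over 36. Standard errors were derived from the F-statistic of each contrast. A pair of replicates of a condition differed by a chi-square of 1.71 to 10.9 per degree of freedom, more than sampling noise gives. The members and gene lists were chosen with earlier results of these data known. The text names the 6 members, *Ift88*, from each list up to 3 genes with the largest called change from 0 h in NT and the genes called between siRNA groups, and the genes most like each member.

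Alternatives were DESeq2 1.42.0, its size factors, no filter, leaving out each library in turn, a replicate block, 1 model over 36 libraries, and limma 3.58.1 on log2(TPM + 1), with genes at 1 TPM or more in 3 libraries, or with a pseudocount of 0.1 or no filter. Fold changes on the log2(TPM + pseudocount) scale understate those of low genes. Where a library was left out, a group of 2 remained. Simulated data had a log2 change of 1 in 200 genes, drawn from those with a mean over 1 CPM, and no change in the others. The steps recovered 94.5% for NT at 1 h (15704 genes), 95.5% for the siRNA groups at 1 h (14620 genes) and 89.5% for the response difference (16102 genes). Smaller changes and changes in genes of lower mean were not simulated. Promoters were searched with Python 3.11.15, and figures drawn with matplotlib 3.10.9.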

Additional observations from a re-analysis of the deposited data

Results flagged for a closer look

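The change from 0 h differed between IFT88siRNA and NT for 3 members at an adjusted p under 0.05 without the fold threshold. This was by the test of the difference itself over all 36 libraries. The share of all genes at that looser threshold was not counted. *Nfkbie* rose less in IFT88siRNA at 1 h (difference −0.78 on the log2 scale, edgeR adjusted p = 0.000943), and so did *Nfkbia* (−0.29, adjusted p = 0.0152). *Nfkbiz* rose more, by 0.23 at 1 h (adjusted p = 0.0371) and 0.28 at 2 h (adjusted p = 0.0147). Only *Nfkbie* passed 1.5-fold, and 0.598% of 16710 genes were called with both thresholds at 1 h. Leaving out 1 library put the adjusted p between 0.000139 and 0.00581 for *Nfkbie*, 0.0106 and 0.0583 for *Nfkbia*, and 0.0375 and 0.144 at 1 h and 0.0130 and 0.0641 at 2 h for *Nfkbiz*. The test for a single outlying library was not applied, since each condition has 3 libraries.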

How the results depend on the processing

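Of 2224 values of single members under the alternatives, 2147 kept direction and call, and 534 of 575 counts of calls stayed within 1.5 times. Same-numbered libraries were compared between NT and IFT88siRNA of the same time point only. Of these 18 pairs 2 correlated over 0.1, and 5 NT libraries correlated best with their own number. With 3 libraries per condition this check is weak and cannot exclude pairing, and pairing across time points was not checked. The replicate block changed 1 of 155 member values, *Nfkbid* in IFT88siRNA against NT at 2 h (−0.89, adjusted p = 0.0234), and gave 115 genes there in place of 73. Genes called between siRNA groups numbered 193 at 0 h and 221 at 1 h by DESeq2, against 341 and 393. With no filter they numbered 137, 100 and 245 at 2, 4 and 8 h (73, 64 and 105 with it), and with 36 libraries in 1 model 142 at 2 h and 231 at 8 h. With no filter the response difference gave 85 genes at 2 h and 40 at 24 h, against 41 and 22. Members called for the response difference at 1 h were 2 by DESeq2, no filter and TPM with pseudocount 1. Members called between siRNA groups were 1 at 1 h by TPM with no filter, and 1 at 2 h with no filter, the block or 36 libraries. Without 1 library, genes called ranged from 217 to 457 at 1 h, 22 to 208 at 2 h, 23 to 140 at 4 h, 47 to 583 at 8 h and 103 to 185 at 24 h between siRNA groups. For the response difference they ranged from 59 to 112 at 1 h, 26 to 60 at 2 h, 38 to 84 at 4 h and 26 to 54 at 8 h. The widest moves came without replicate 2 of NT at 2 h (208) and replicate 3 of IFT88siRNA at 8 h (583). Members called ranged from 1 to 2 for the response difference at 1 h (2 without replicate 2 of NT at 1 h) and from 0 to 1 between siRNA groups at 2 h. Direction turned only in values that were not called: by TPM, *Nfkbib* (0.0382, 0.0425 and 0.0382) and *Nfkbia* (−0.030, −0.0311 and −0.030) in the response difference at 1 and 2 h, and *Bcl3* between siRNA groups at 0 h (−0.0040, −0.0078 and −0.0040). With no filter *Nfkbib* turned at 0 h (0.0079). Without 1 library, log2 values ranged from −0.25 to 0.0791 for *Bcl3* in the response difference at 2 h, and between siRNA groups from −0.0538 to 0.0556 for *Nfkbib* at 0 h, −0.0919 to 0.24 for *Bcl3* at 0 h, −0.14 to 0.0587 for *Bcl3* at 2 h and −0.32 to 0.25 for *Nfkbid* at 8 h. By TPM with pseudocount 1, *Nfkbid* lost its calls against 0 h at 8 and 24 h in NT and at 4, 8 and 24 h in IFT88siRNA. CPM per kilobase moved 63 of 72 family shares by over 1 SD. The causes were not tested. Depth limits *Nfkbid*, with 1 to 4 counts per library at 0 h.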
